A study of Mus musculus with 24 samples.

Results

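The proteasome genes of mouse plantaris muscle were taken as every gene whose symbol is Psma, Psmb, Psmc, Psmd, Psme, Psmf or Psmg followed by a number and that had a probe set carrying 1 gene symbol. The rule found 50 genes of 19937 on the arrays, and it used symbols alone, not measured values. Of the 50, 48 passed a filter on dim probe sets (a mean above the 30th percentile of intensity in at least 1 group) and were tested. The testis subunit gene Psma8 and the thymus subunit gene Psmb11 stayed below that level in all groups, with group means of 6.05 to 6.15 and 6.17 to 6.26 on the log2 scale. A pair of the matches, Psmc3ip and Psme3ip1, are named for proteins that bind proteasome proteins and are not subunits.

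The 26S proteasome is the ATP-dependent protease that degrades proteins tagged with ubiquitin. Its 20S core is a stack of rings of alpha subunits (Psma genes), which gate the entrance, and of beta subunits (Psmb genes), of which Psmb5, Psmb6 and Psmb7 encode the constitutive catalytic sites and Psmb8, Psmb9 and Psmb10 their interferon-inducible substitutes in the immunoproteasome. The 19S cap holds a ring of ATPases (Psmc genes), which unfold the substrate, and non-ATPase subunits (most Psmd genes), which bind and cut off ubiquitin. Alternative caps are encoded by Psme genes, dedicated chaperones by Psmg genes and by Psmd5, Psmd9 and Psmd10, and in skeletal muscle the pathway is best known for the breakdown of contractile proteins during atrophy.

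Plantaris muscle from 24 mice aged 3 months was hybridised to 1 whole-transcript array per sample, in 4 groups of 6. The groups were wild-type mice without treatment, wild-type mice with overload, Mstn-/- mice without treatment and Mstn-/- mice with overload. Mstn encodes myostatin, a secreted inhibitor of muscle growth, and Mstn-/- mice lack it in every cell. For overload, the soleus and most of the gastrocnemius were cut out of both legs, with pentobarbitone (50 mg/kg) as anaesthetic, which leaves the plantaris to carry the load. The untreated mice had no operation, so surgery and overload cannot be told apart, and neither the duration of overload nor whether the genotypes were littermates appears in the sources used here. Values are log2 of the deposited robust multi-array average (RMA) intensity, differences are log2 differences of group means ± standard error (n = 6 a group), and adjusted p-values are from limma with Benjamini-Hochberg adjustment over 14499 tested genes. A gene was called changed at an adjusted p under 0.05.

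Array medians lay between 139 and 147 in intensity, and the 10 myofibre markers were above the filter level in every group. Mstn was 2.51-fold lower in untreated Mstn-/- than in untreated wild-type muscle (adjusted p = 2.7e-08, limma). Between the overloaded groups it differed by -0.15 (adjusted p = 0.39, limma), so Mstn checks the genotype label only in untreated muscle, and the sources used here do not say whether its probe set lies in the deleted part. Wild-type overload replicate 3 varied most around its group (residual SD 0.203 over tested genes, against 0.089 to 0.191 in the other arrays), and calls that rest on it are given with and without it.

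Of the proteasome genes called different between genotypes, most were higher in Mstn-/- muscle, both untreated and overloaded. In untreated muscle 23 of 48 (47.9%) were higher and 3 (6.25%) lower in Mstn-/- than in wild type, where 11.1% of all tested genes were higher and 10.2% lower. After overload 26 (54.2%) were higher and 2 (4.17%) lower, where 17.5% of all tested genes were higher and 19% lower. The median difference was 0.15 over the proteasome genes and -0.01 over all tested genes in untreated muscle, and 0.19 and -0.03 after overload. Among 31 constitutive genes of the 20S core and 19S cap, 21 were higher and none lower in untreated Mstn-/- muscle, and 21 were higher and 1 (Psmd8) lower after overload. Other members were also called, more of them higher than lower after overload. In whole muscle, fewer cells of a type and less RNA per cell cannot be told apart.

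**Figure D1:**
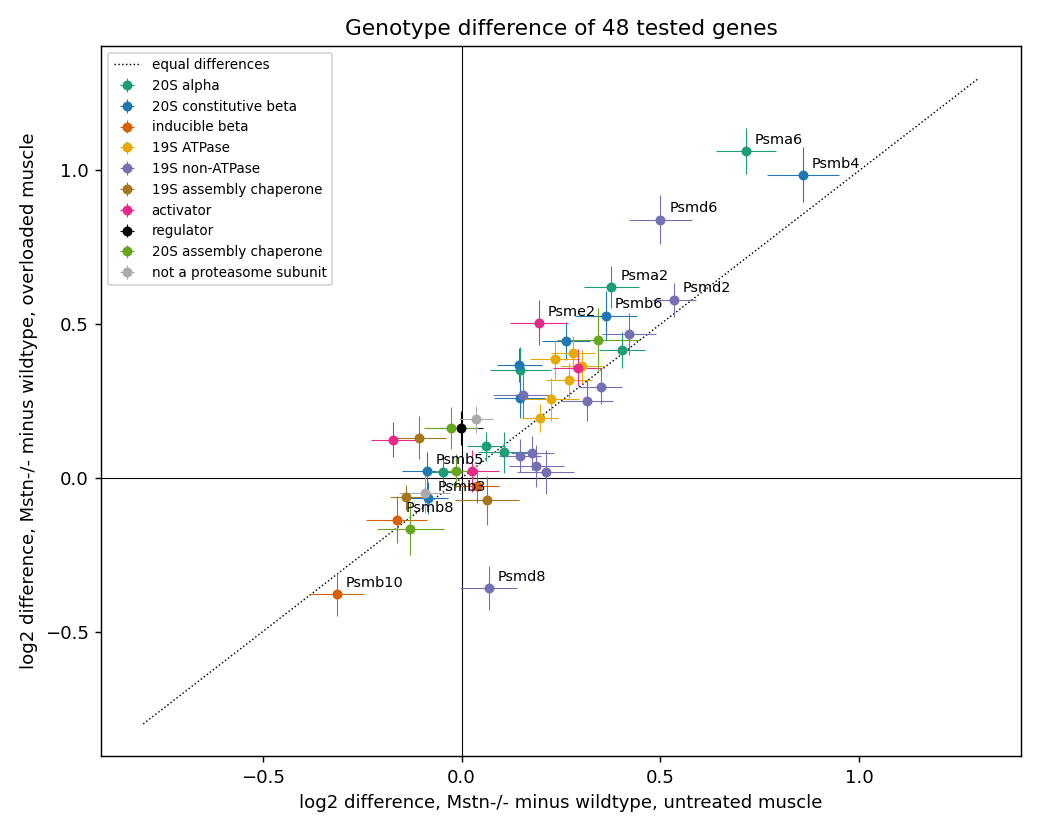
Difference between Mstn-/- and wild-type muscle for the 48 tested proteasome genes, untreated on the horizontal axis and overloaded on the vertical axis (log2 difference of group means, 6 arrays a group, lines of 1 standard error each way, coloured by the gene's role in the particle, dotted line at equal differences). Psmb4 and Psma6 lie farthest up and right, at 0.86 and 0.99 and at 0.71 and 1.06, while Psmb10 lies below 0 on both axes at -0.31 and -0.38.

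Of the genes higher in Mstn-/- muscle, 19 were called in both states, which is 82.6% of the 23 called untreated and 73.1% of the 26 called after overload. Over all tested genes 826 were called in both, 51.1% and 32.5% of the respective lists. The 19 were Psma2, Psma5, Psma6, Psmb4, Psmb6, Psmb7, all of Psmc1 to Psmc6, Psmd1, Psmd2, Psmd4, Psmd6, Psmd7, Psme4 and Psmg1. Among genes called in 1 state and not in the other, the difference between the states was itself called for Psme1, Psme2 and Psmd8. The genotype comparisons in the 2 states share no arrays, and across the 48 genes their differences had a Pearson correlation of 0.88 and a Spearman correlation of 0.84, against 0.42 and 0.38 across all tested genes. These correlations are descriptions across genes, which are not independent and which within a comparison come from the same 12 arrays. The groups did not overlap for 19 genes that were higher in untreated Mstn-/- muscle, where 6.53% of all tested genes were separated in that direction, and for 18 after overload, where that share was 7.06%. In the other direction 1 gene was separated in each state, Psme1 untreated and Psmb10 after overload, where 5.47% and 8.46% of all tested genes were.

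The core's alpha ring was led by Psma6 (alpha 1). In untreated muscle the lowest, median and highest Psma6 levels were 9.91, 9.96 and 10.08 in wild type and 10.57, 10.70 and 10.78 in Mstn-/-, and after overload they were 9.44, 9.68 and 9.96 in wild type and 10.62, 10.76 and 11.08 in Mstn-/-. All 12 Mstn-/- arrays lay above all 12 wild-type arrays. The difference was 0.71 ± 0.076 untreated (1.64-fold, adjusted p = 1.4e-07, limma) and 1.06 ± 0.076 after overload (2.09-fold, adjusted p = 4.0e-10, limma). Psma2 (alpha 2) ranged from 8.14 through a median of 8.33 to 8.42 in untreated wild type and from 8.52 through 8.65 to 8.82 in untreated Mstn-/-. After overload it ranged from 8.10 through 8.17 to 8.26 in wild type and from 8.64 through 8.76 to 9.11 in Mstn-/-, so the genotypes were again fully separated. The Psma2 difference was 0.38 untreated (adjusted p = 2.7e-04, limma) and 0.62 ± 0.069 after overload (1.54-fold, adjusted p = 1.8e-07, limma). The rest of the ring was uneven: Psma5 was 1.32-fold and 1.33-fold higher, Psma3 was called after overload (0.35) and not untreated (0.15), and Psma1 (-0.05 ± 0.049 untreated, 0.02 ± 0.049 overloaded), Psma4 (0.11 and 0.08) and Psma7 (0.06 and 0.10) were called in neither state. The unused Psma3 probe sets gave 0.14 and 0.26 untreated (adjusted p = 0.24 and 0.044, limma over all probe sets). After overload they gave 0.28 and 0.57 (adjusted p = 0.0052 and 1.7e-05, limma over all probe sets).

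Among the beta subunits, Psmb4, a structural subunit of the beta ring, differed most. Its lowest, median and highest levels were 10.11, 10.31 and 10.37 in untreated wild type and 10.99, 11.14 and 11.33 in untreated Mstn-/-, and 9.81, 10.33 and 10.44 in overloaded wild type and 11.11, 11.21 and 11.61 in overloaded Mstn-/-. No Mstn-/- array overlapped any wild-type array. The difference was 0.86 ± 0.090 untreated (1.81-fold, adjusted p = 1.3e-07, limma) and 0.99 ± 0.090 after overload (1.98-fold, adjusted p = 1.2e-08, limma).

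The constitutive catalytic subunits did not move as a set. Psmb6, the caspase-like site, went from 9.53, 9.64 and 9.73 (lowest, median, highest) in untreated wild type to 9.75, 10.05 and 10.23 in untreated Mstn-/-, and from 9.44, 9.64 and 9.79 to 9.91, 10.16 and 10.32 between the overloaded groups. The genotypes were separated in both states, by 0.36 (1.29-fold, adjusted p = 0.0014, limma) and 0.53 ± 0.079 (1.44-fold, adjusted p = 1.0e-05, limma). Psmb7, the trypsin-like site, was 1.20-fold and 1.36-fold higher in Mstn-/- muscle (adjusted p = 0.0026 and 3.1e-06, limma). Psmb5, the chymotrypsin-like site, had medians of 12.24 and 12.14 in untreated wild type and Mstn-/- and 12.08 in both overloaded groups, with overlapping ranges in each state. Its difference was -0.09 ± 0.063 untreated and 0.02 ± 0.063 after overload (adjusted p = 0.37 and 0.81, limma), and that of the structural subunit Psmb3 was -0.08 ± 0.051 and -0.07 ± 0.051. Psmb1 and Psmb2 were called after overload, at 0.26 and 0.37, and not untreated, at 0.15 each.

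**Figure D2:**
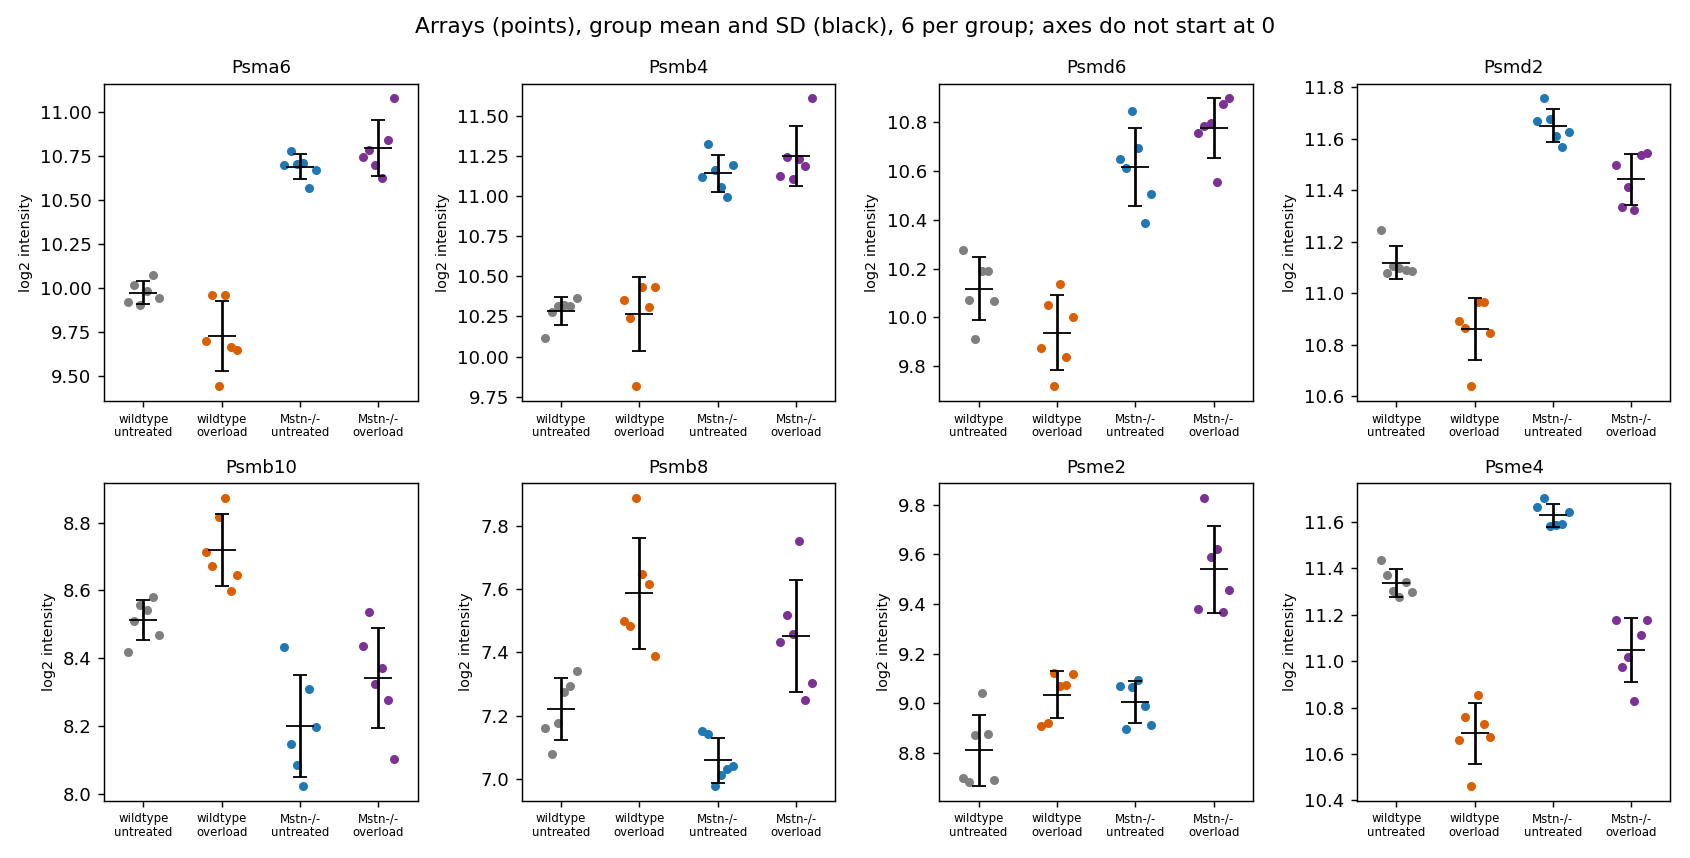
Level of 8 proteasome genes in each of the 24 arrays (log2 RMA intensity, 1 point an array, black marks at the group mean with SD, 6 arrays a group, axes not starting at 0). Mstn-/- arrays lie above wild-type arrays in both states for Psma6, Psmb4, Psmd6 and Psmd2, while Psme4 falls with overload in both genotypes.

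All 6 ATPases of the 19S base, Psmc1 to Psmc6, were higher in Mstn-/- muscle in both states, by 0.20 to 0.30 untreated and 0.20 to 0.41 after overload. The shares of all tested genes that were higher were 11.1% and 17.5%. Psmc2 was at 9.03, 9.14 and 9.21 in untreated wild type and 9.26, 9.43 and 9.50 in untreated Mstn-/-, and at 8.70, 8.95 and 9.04 in overloaded wild type and 9.21, 9.31 and 9.45 in overloaded Mstn-/- (lowest, median, highest). The genotypes did not overlap in either state, with differences of 0.28 (1.21-fold, adjusted p = 6.9e-04, limma) and 0.41 ± 0.056 (1.32-fold, adjusted p = 3.9e-06, limma). Psmc5 was separated too, with 8.82 the highest untreated wild-type array and 8.83 the lowest Mstn-/- one, and with 8.58 and 8.73 at those places after overload. Its differences were 0.24 and 0.39 ± 0.063 (adjusted p = 0.0082 and 3.0e-05, limma).

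Among 11 non-ATPase subunits of the cap, 9 (81.8%) were higher in untreated Mstn-/- muscle and 6 (54.5%) after overload. Over all tested genes 11.1% and 17.5% were higher. Psmd8 was lower after overload (-0.36, adjusted p = 3.3e-04, limma). Psmd6, a lid subunit, had lowest, median and highest levels of 9.91, 10.13 and 10.27 in untreated wild type and 10.39, 10.63 and 10.85 in untreated Mstn-/-, and of 9.72, 9.94 and 10.14 in overloaded wild type and 10.55, 10.79 and 10.90 in overloaded Mstn-/-. All Mstn-/- arrays were above all wild-type arrays, by 0.50 ± 0.079 untreated (1.41-fold, adjusted p = 4.3e-05, limma) and 0.84 ± 0.079 after overload (1.79-fold, adjusted p = 1.7e-08, limma). Psmd2, the large scaffold subunit of the base, was at 11.08, 11.10 and 11.25 in untreated wild type against 11.57, 11.65 and 11.76 in untreated Mstn-/-, and at 10.64, 10.88 and 10.97 against 11.32, 11.46 and 11.55 after overload. It was separated in both states, with differences of 0.53 ± 0.055 (1.45-fold, adjusted p = 1.1e-07, limma) and 0.58 ± 0.055 (1.49-fold, adjusted p = 2.3e-08, limma), and its other probe set gave 0.51 untreated. The ubiquitin receptor Psmd4 was higher by 0.35 and 0.30, and the lid subunits Psmd3, Psmd11, Psmd13 and the deubiquitinase Psmd14 were called untreated, at 0.15 to 0.21, and not after overload, at 0.02 to 0.08.

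Promoter sequences are shown for the genes with the largest genotype differences in untreated muscle, Psma6, Psmb4, Psmd6 and Psmd2, and for a catalytic pair discussed below, Psmb5 and Psmb8. They are the 250 bases before each RefSeq transcript start (build GRCm38.p6), 5′ to 3′ on the gene's strand, in lower case with matches to any of 5 searched motifs in capitals. The motifs, searched on both strands with overlaps allowed, were TGACNNNGC and TGAGNNNGC (forms of the antioxidant response element bound by Nfe2l1 and Nfe2l2), CCAAT, TTCNNNGAA (the STAT site) and GAAA repeated after any 2 bases (an interferon response form).
Psma6, first start, chr12:55383972-55384221, plus strand: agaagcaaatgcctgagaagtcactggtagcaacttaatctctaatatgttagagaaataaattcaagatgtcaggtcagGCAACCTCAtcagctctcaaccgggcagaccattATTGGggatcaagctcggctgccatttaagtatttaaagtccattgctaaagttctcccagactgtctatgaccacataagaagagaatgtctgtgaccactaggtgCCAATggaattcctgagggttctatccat
Psma6, second start, chr12:55398575-55398824, plus strand: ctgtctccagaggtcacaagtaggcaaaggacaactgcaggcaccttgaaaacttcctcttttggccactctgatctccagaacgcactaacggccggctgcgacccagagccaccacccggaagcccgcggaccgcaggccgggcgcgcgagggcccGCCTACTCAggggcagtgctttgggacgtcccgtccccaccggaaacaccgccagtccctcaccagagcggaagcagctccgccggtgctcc
Psmb4, chr3:94886959-94887208, minus strand: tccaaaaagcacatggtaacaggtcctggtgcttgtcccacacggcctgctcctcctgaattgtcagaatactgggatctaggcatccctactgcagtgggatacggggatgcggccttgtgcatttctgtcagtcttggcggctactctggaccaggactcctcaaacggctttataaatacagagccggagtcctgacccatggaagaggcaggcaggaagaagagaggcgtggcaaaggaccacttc
Psmd6, chr14:14120946-14121195, minus strand: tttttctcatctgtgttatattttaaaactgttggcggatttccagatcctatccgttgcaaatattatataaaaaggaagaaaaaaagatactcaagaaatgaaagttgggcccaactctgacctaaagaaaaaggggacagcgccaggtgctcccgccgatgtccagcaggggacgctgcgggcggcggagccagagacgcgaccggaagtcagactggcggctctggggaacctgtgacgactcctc
Psmd2, chr16:20651402-20651651, plus strand: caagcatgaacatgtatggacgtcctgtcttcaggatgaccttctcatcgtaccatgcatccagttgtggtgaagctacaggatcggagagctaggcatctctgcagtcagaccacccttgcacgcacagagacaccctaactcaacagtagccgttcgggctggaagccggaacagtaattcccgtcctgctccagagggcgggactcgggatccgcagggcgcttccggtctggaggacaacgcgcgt
Psmb5, chr14:54617996-54618245, minus strand: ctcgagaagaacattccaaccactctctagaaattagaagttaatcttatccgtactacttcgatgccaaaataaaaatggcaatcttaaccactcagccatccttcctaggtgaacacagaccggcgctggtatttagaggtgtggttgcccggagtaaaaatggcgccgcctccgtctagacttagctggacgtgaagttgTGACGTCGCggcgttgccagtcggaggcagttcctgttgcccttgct
Psmb8, chr17:34197945-34198194, plus strand: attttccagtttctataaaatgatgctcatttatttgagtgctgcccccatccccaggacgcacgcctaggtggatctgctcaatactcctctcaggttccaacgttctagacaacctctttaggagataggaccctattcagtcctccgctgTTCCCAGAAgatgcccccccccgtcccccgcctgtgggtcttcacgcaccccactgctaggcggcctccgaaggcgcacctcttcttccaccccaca
Psmb4, Psmd6 and Psmd2 held none of the 5 motifs in these windows, and both Psma6 starts held TGAGNNNGC on the opposite strand. Psmb5, which was not called between genotypes in either state, held TGACGTCGC 47 bases before its start. Windows were found for 42 of the 50 genes (46 windows); the others were Psma8, Psmb1, Psmb2, Psmb7, Psmc3, Psmd3, Psmd7 and Psmg2. TGACNNNGC was in 10.9% of these windows (Psmb5, Psmb6, Psmc6, Psmd9 and Psmd12) and in 10.2% of 32851 windows of all genes, and TGAGNNNGC was in 23.9% and 14.4%. CCAAT was in 34.8% and 33.8%, TTCNNNGAA in 4.35% (Psmb8 and Psmg1) and 7.02%, and the GAAA repeat in 6.52% (Psmb3, Psmd4 and Psmd9) and 2.98%. A match describes letters in the window only.

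Outside the constitutive core and cap, Psme4 and Psmg1 were called higher and Psmb10, Psmd9 and Psme1 lower in untreated Mstn-/- muscle. After overload Psme2, Psme4, Psmg1, Psmf1 and Psme3ip1 were called higher and Psmb10 lower. Psmb10, the inducible trypsin-like site, was lower in Mstn-/- muscle: its lowest, median and highest levels were 8.42, 8.52 and 8.58 in untreated wild type and 8.02, 8.17 and 8.43 in untreated Mstn-/-, and 8.60, 8.69 and 8.87 against 8.10, 8.35 and 8.54 after overload. The untreated ranges overlapped at 1 edge and the overloaded ranges did not overlap, with differences of -0.31 ± 0.069 (adjusted p = 0.0018, limma) and -0.38 ± 0.069 (adjusted p = 1.2e-04, limma). The inducible sites Psmb8 (-0.16 and -0.14) and Psmb9 (0.04 and -0.03) were called in neither state. Of the 4 genes of 20S assembly chaperones, Psmg1 alone was called, 1.27-fold and 1.37-fold higher in Mstn-/- muscle (adjusted p = 0.019 and 0.0013, limma). Its medians were 8.01 and 8.35 untreated with overlapping ranges, and 8.03 and 8.51 after overload, where 8.26 was the highest wild-type array and 8.25 the lowest Mstn-/- one. Of the 19S chaperones, Psmd9 was lower by -0.14 ± 0.040 in untreated Mstn-/- muscle (medians 7.96 and 7.82, adjusted p = 0.014, limma) and Psmd5 and Psmd10 were not called.

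**Figure D3:**
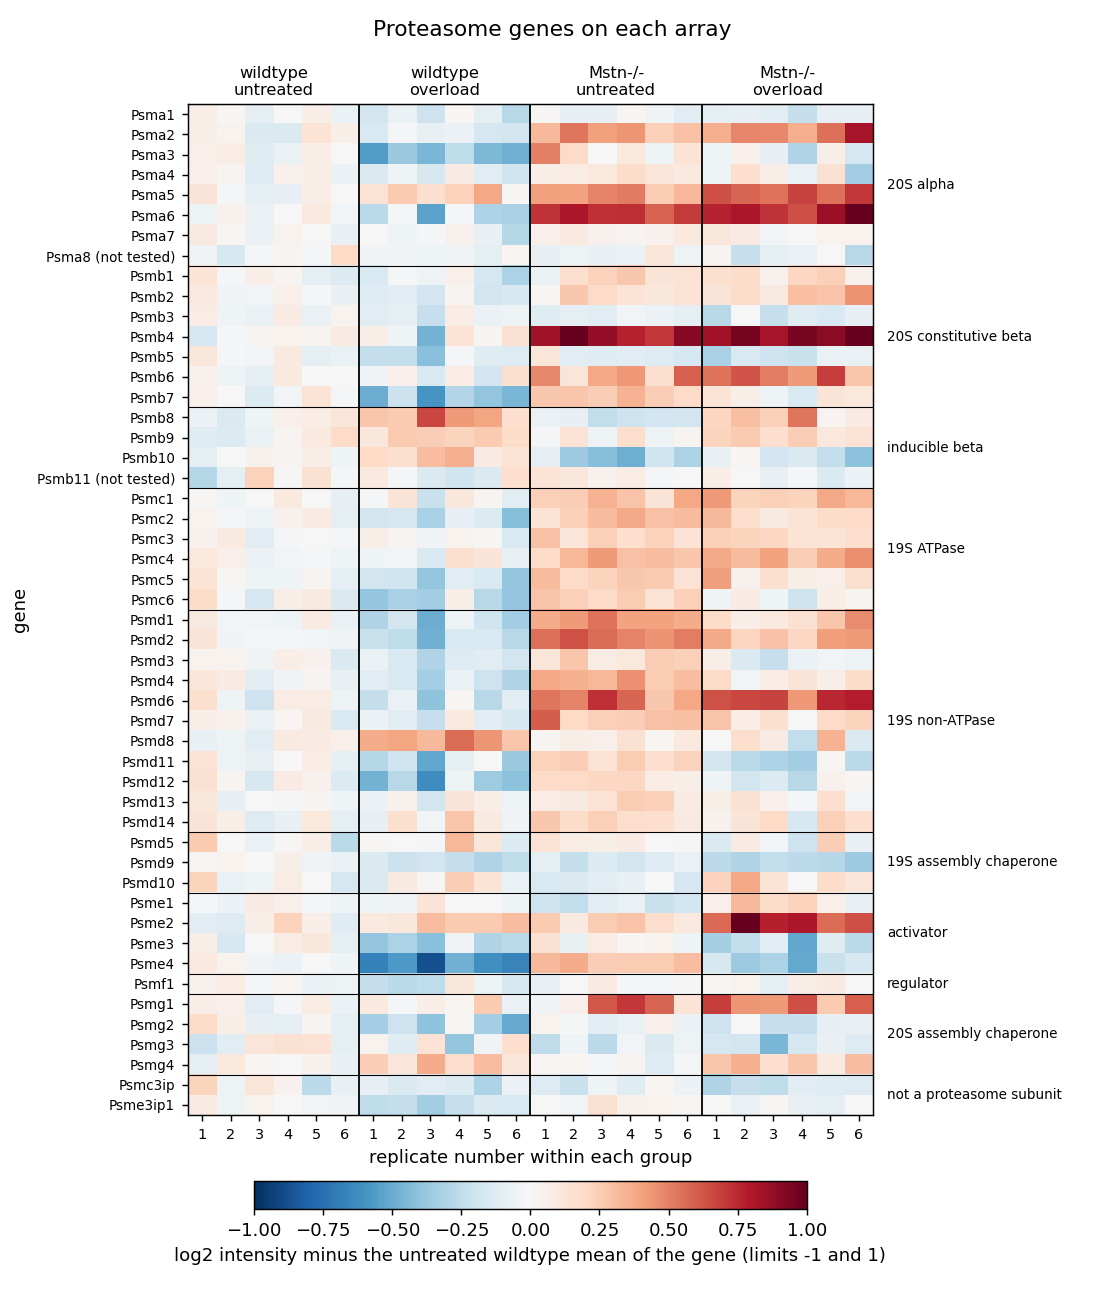
Level of each of the 50 genes in the 24 arrays as the difference from the gene's mean in untreated wild type (log2, red above and blue below, colours limited to -1 and 1), with arrays in columns by group and genes in rows by role. On average, rows of the 19S ATPases and of Psma6, Psmb4, Psmd6 and Psmd2 are higher in Mstn-/- columns than in wild-type columns of the same state. Psmb8 and Psme2 are higher in overload columns than in untreated columns of the same genotype.

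With overload more proteasome genes fell than rose, as over the whole array, and those that rose were a smaller share than over the whole array. The share that fell was above that of all tested genes in wild type and below it in Mstn-/- muscle. In wild-type muscle 7 of 48 (14.6%) rose and 21 (43.8%) fell, where 30.3% of all tested genes rose and 35.6% fell. In Mstn-/- muscle 7 (14.6%) rose and 13 (27.1%) fell, where 27.1% of all tested genes rose and 33.5% fell. Median changes were -0.11 and -0.07, against -0.06 over all tested genes in each genotype. Groups were separated upwards for 4 genes and downwards for 7 in wild type (21.8% and 21.1% of all tested genes) and for 5 and 10 in Mstn-/- (19.8% and 20.1%). Those that fell in both genotypes numbered 12 (25%, where 25.7% of all tested genes did), among them Psme4, Psma3, Psmb7, Psmc6 and the cap subunits Psmd1, Psmd2, Psmd3, Psmd4, Psmd11 and Psmd12. In Mstn-/- muscle the unused Psma3 probe sets changed by -0.13 and -0.14 and were not called (adjusted p = 0.13 and 0.18, limma over all probe sets). Those that rose in both were the 5 genes Psma5, Psmb8, Psmb9, Psme2 and Psmg4 (10.4%, where 23.7% of all tested genes did). The other Psma5 probe set changed by 0.09 and 0.08 and was not called in either genotype (adjusted p = 0.34 and 0.36, limma over all probe sets).

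**Figure D4:**
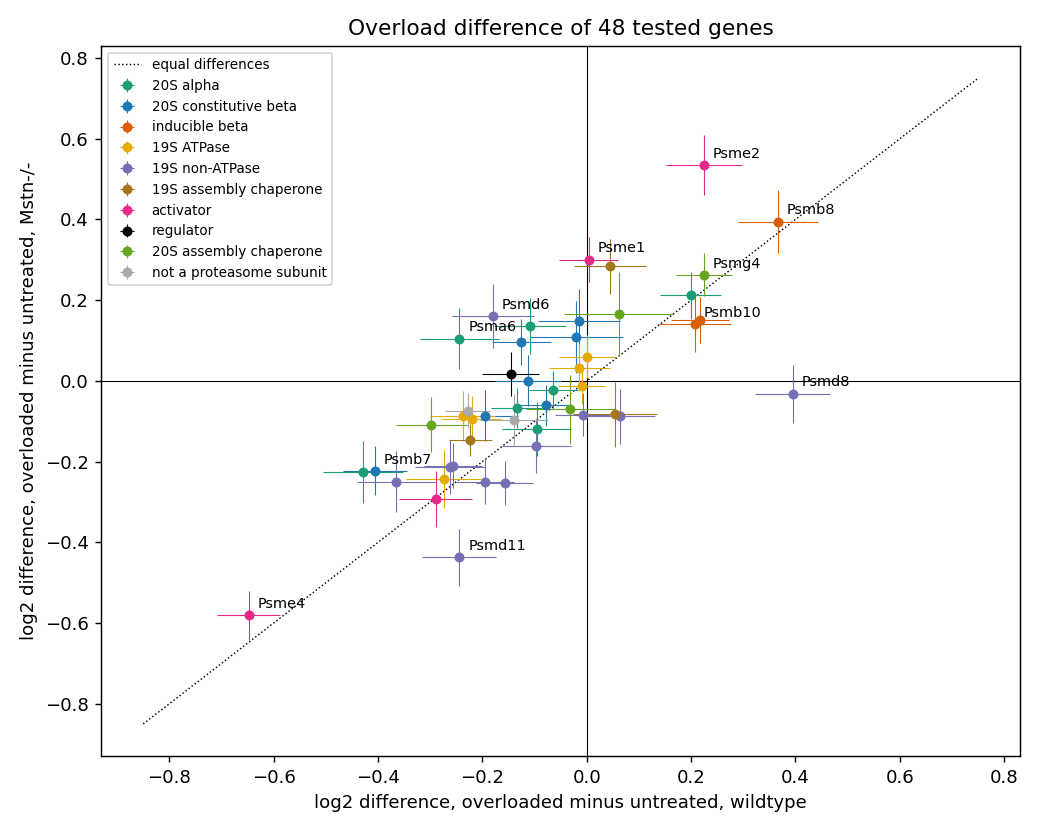
Change with overload in wild-type muscle (horizontal axis) and Mstn-/- muscle (vertical axis) for the 48 tested proteasome genes (log2 difference of group means, 6 arrays a group, lines of 1 standard error each way, coloured by role, dotted line at equal differences). Psme4 lies lowest in both genotypes at -0.65 and -0.58, and Psmb8 and Psme2 lie up and right, at 0.37 and 0.39 and at 0.22 and 0.54.

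The gene that fell most was Psme4, which encodes the single-chain activator PA200, a nuclear cap of the 20S core. Its lowest, median and highest levels were 11.27, 11.32 and 11.44 in untreated and 10.46, 10.70 and 10.85 in overloaded wild-type muscle, and 11.58, 11.62 and 11.70 in untreated and 10.83, 11.07 and 11.18 in overloaded Mstn-/- muscle. Overloaded and untreated arrays of each genotype were fully separated, and so were the genotypes in untreated muscle; after overload their ranges overlapped at the edge. It fell by 0.65 ± 0.061 in wild type (1.57-fold, adjusted p = 5.8e-10, limma) and by 0.58 ± 0.061 in Mstn-/- (1.50-fold, adjusted p = 8.7e-09, limma). Psme4 was also higher in Mstn-/- than in wild-type muscle, by 0.29 untreated and 0.36 overloaded (adjusted p = 0.0010 and 4.7e-05, limma). Psme3, which encodes the nuclear activator PA28 gamma, fell by 0.29 in each genotype.

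In the core and cap the falls were smaller. Psmb7 went from 10.52, 10.64 and 10.78 to 10.06, 10.23 and 10.43 in wild type (lowest, median, highest) and from 10.84, 10.91 and 11 to 10.50, 10.73 and 10.79 in Mstn-/-, with no overlap in either. It fell by 0.41 ± 0.061 (adjusted p = 1.6e-06, limma) and by 0.22 (adjusted p = 0.0027, limma). Psma3 fell by 0.43 ± 0.076 in wild type (adjusted p = 2.0e-05, limma) and the lid subunit Psmd11 by 0.44 ± 0.071 in Mstn-/- (adjusted p = 8.8e-06, limma). Psmd2 fell by 0.26 and 0.21, and its overloaded Mstn-/- arrays (11.32 to 11.55) stayed above the untreated wild-type arrays (11.08 to 11.25). Psmb5 fell by 0.20 in wild type (adjusted p = 0.0087, limma) and was not called in Mstn-/- (-0.09). Of the chaperones, Psmd9 fell by 0.22 ± 0.040 and 0.15 (adjusted p = 2.6e-05 and 0.0030, limma), Psmg2 fell by 0.30 ± 0.069 in wild type (adjusted p = 4.5e-04, limma), and Psmg4 rose by 0.22 ± 0.053 and 0.26 (adjusted p = 6.2e-04 and 1.4e-04, limma). Psmd10, which encodes gankyrin, a 19S chaperone, had medians of 8.59 and 8.66 in untreated and overloaded wild type and of 8.49 and 8.77 in Mstn-/-, and it rose in Mstn-/- by 0.28 ± 0.069 (adjusted p = 9.5e-04, limma). Its change in wild type was 0.04 ± 0.069, and the difference between the responses was not called (adjusted p = 0.094, limma). Psme3ip1 fell by 0.23 in wild type (adjusted p = 4.8e-05, limma).

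The inducible catalytic subunits rose with overload. Psmb8, the substitute for Psmb5, had lowest, median and highest levels of 7.08, 7.23 and 7.34 in untreated and 7.39, 7.56 and 7.89 in overloaded wild-type muscle, and of 6.98, 7.04 and 7.15 in untreated and 7.25, 7.45 and 7.75 in overloaded Mstn-/- muscle. Overloaded arrays lay above untreated ones without overlap in both genotypes, and the rise was 0.37 ± 0.077 (1.29-fold, adjusted p = 1.7e-04, limma) and 0.39 ± 0.077 (1.31-fold, adjusted p = 9.7e-05, limma). Psmb9, the substitute for Psmb6, rose by 0.22 ± 0.056 and 0.15 (adjusted p = 0.0014 and 0.023, limma), from medians of 8.06 to 8.31 and of 8.08 to 8.27 with overlapping ranges. Psmb10 rose by 0.21 ± 0.069 in wild type (adjusted p = 0.011, limma), where the groups were separated, and was not called in Mstn-/- (0.14, adjusted p = 0.079, limma).

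Each inducible subunit was set against the constitutive one it replaces, as the log2 difference of their probe sets within an array. Only the change of this difference between groups is read, since levels of different probe sets are not comparable. The 12 exact two-sided permutation tests (6 arrays against 6, smallest possible p = 0.00216) were adjusted together. Psmb8 relative to Psmb5 rose with overload by 0.56 ± 0.127 in wild type and by 0.48 ± 0.106 in Mstn-/- (exact adjusted p = 0.0043 each). Psmb10 relative to Psmb7 rose by 0.61 ± 0.086 in wild type and by 0.36 ± 0.109 in Mstn-/- (exact adjusted p = 0.0043 and 0.026). Psmb9 relative to Psmb6 rose by 0.23 ± 0.086 in wild type (exact adjusted p = 0.032), a call lost with quantile normalization (0.15, exact adjusted p = 0.15), and in Mstn-/- its change was 0.0021 ± 0.111 (exact adjusted p = 0.98).

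Between genotypes the same ratios were lower in Mstn-/- muscle for 2 of the 3 pairs. Psmb10 relative to Psmb7 was lower by -0.58 ± 0.085 untreated and -0.82 ± 0.110 after overload (exact adjusted p = 0.0043 each). Psmb9 relative to Psmb6 was lower by -0.32 ± 0.106 and -0.55 ± 0.093 (exact adjusted p = 0.026 and 0.0043). These ratios combine the single-gene differences given above. In the Psmb10 pair both genes differed, Psmb10 by -0.31 and -0.38 and Psmb7 by 0.26 and 0.45. In the Psmb9 pair the difference lay in Psmb6 (0.36 and 0.53), and Psmb9 itself was not called (0.04 and -0.03). Psmb8 relative to Psmb5 differed by -0.08 and -0.16 (exact adjusted p = 0.36 and 0.38).

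**Figure D5:**
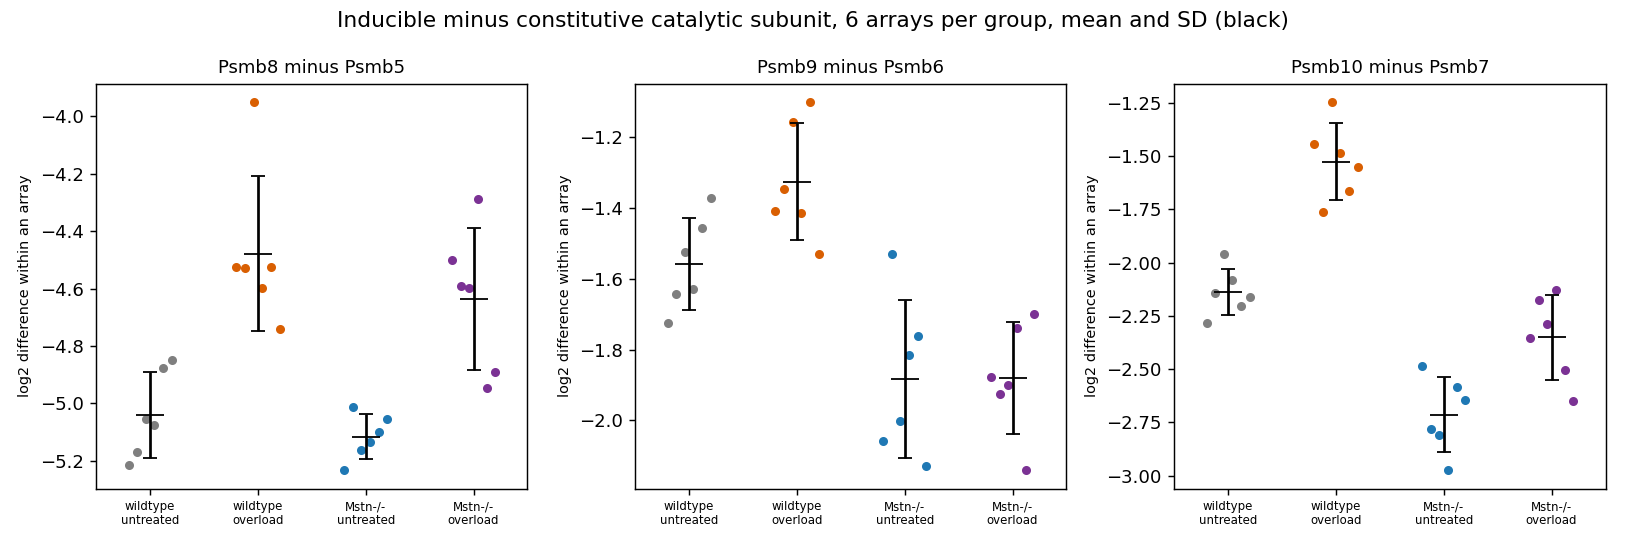
Within-array log2 difference of each inducible catalytic subunit from the constitutive one it replaces, by group (1 point an array, 6 arrays a group, black marks at the group mean with SD). The Psmb8 to Psmb5 difference rises with overload in both genotypes, by 0.56 and 0.48, and the Psmb10 to Psmb7 difference is lower in Mstn-/- muscle, by -0.58 untreated and -0.82 overloaded.

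The PA28 activator of the immunoproteasome, made of Psme1 (alpha) and Psme2 (beta), changed differently in the genotypes. Psme1 was at 9.68, 9.73 and 9.82 in untreated and 9.70, 9.72 and 9.87 in overloaded wild-type muscle (lowest, median, highest), and at 9.50, 9.54 and 9.67 in untreated and 9.67, 9.86 and 10.07 in overloaded Mstn-/- muscle. The wild-type groups overlapped throughout, and in Mstn-/- muscle Psme1 rose by 0.30 ± 0.056 (1.23-fold, adjusted p = 5.2e-05, limma) from a level that was -0.17 ± 0.056 below wild type (adjusted p = 0.028, limma). The test of the difference between the responses gave 0.30 ± 0.079 (adjusted p = 0.0099, limma). Psme2 was at 8.68, 8.79 and 9.04 and then 8.91, 9.07 and 9.12 in wild type, and at 8.90, 9.03 and 9.09 and then 9.37, 9.52 and 9.83 in Mstn-/-. Overloaded Mstn-/- arrays lay above every other array, and the rise was 0.22 ± 0.073 in wild type (adjusted p = 0.0092, limma) and 0.54 ± 0.073 in Mstn-/- (1.45-fold, adjusted p = 7.1e-07, limma), a difference of 0.31 ± 0.104 (adjusted p = 0.039, limma). A probe set that carries both the Psme2b and Psme2 symbols was outside the rule; it gave changes of 0.35 in wild type and 0.73 in Mstn-/-.

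Across all proteasome genes the response to overload was called different between genotypes for 5 of 48, with 4 (8.33%) more positive and 1 (2.08%) more negative in Mstn-/-, where 8.92% and 8.44% of all tested genes were called in these directions. Besides Psme1 and Psme2 these were Psma6 (0.35 ± 0.107, adjusted p = 0.025, limma), Psmd6 (0.34 ± 0.111, adjusted p = 0.035, limma) and Psmd8 (-0.43 ± 0.102, adjusted p = 0.0047, limma). Psma6 and Psmd6 fell in wild type, by 0.24 and 0.18 (adjusted p = 0.0064 and 0.047, limma), and were not called in Mstn-/- (0.10 and 0.16). Psmd8, a lid subunit described here because its values stood out, was at 10.60, 10.71 and 10.80 in untreated and 10.98, 11.09 and 11.27 in overloaded wild type, and at 10.73, 10.76 and 10.86 and then 10.46, 10.75 and 11.05 in Mstn-/-. It rose in wild type without overlap, by 0.39 ± 0.072 (1.31-fold, adjusted p = 2.9e-05, limma), and its Mstn-/- arrays overlapped. Leaving out each array in turn, the calls for Psma6, Psmd8 and Psme1 held in 24 of 24 fits, for Psmd6 in 14 and for Psme2 in 13. Without wild-type overload replicate 3, Psmd6 lost this call (0.30, adjusted p = 0.067, limma) and its fall in wild type (-0.14, adjusted p = 0.14, limma). Psmf1, which encodes the inhibitor PI31, fell in wild type (-0.15, adjusted p = 0.022, limma) and was higher in overloaded Mstn-/- than wild-type muscle (0.16 ± 0.055, adjusted p = 0.021, limma), with medians of 8.81, 8.61, 8.81 and 8.84 in the 4 groups; without that array both calls were lost (adjusted p = 0.059 and 0.058, limma).

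Other genes of the pathway were described from lists written with earlier results of these data known, naming up to 4 members a list by the smallest adjusted p of a rise and of a fall over all comparisons. Their counts are read against the shares of all tested genes, which in untreated and overloaded muscle were 11.1% and 17.5% higher and 10.2% and 19% lower in Mstn-/-, and with overload 30.3% and 27.1% higher and 35.6% and 33.5% lower in wild type and Mstn-/-. Counts cover only genes measured on the arrays. The lists gave 14 further proteasome genes from 18 symbols, 12 regulators from 13 and 9 ubiquitin supply genes from 14. They gave 11 ligases from 12 symbols and 14 interferon and antigen presentation genes from 21. Of 14 further proteasome and shuttle genes, 5 (35.7%) were higher and none lower in untreated Mstn-/- muscle (median difference 0.17) and 7 (50.0%) were higher and 1 (Akirin2, -0.18) lower after overload (median 0.18). With overload 10 (71.4%) fell in wild type and 9 (64.3%) in Mstn-/-, and 1 rose in each, the small cap subunit gene Sem1 (0.19 and 0.35); Akirin2 and Sem1 were named after their values were seen. Ecpas, a proteasome adaptor and scaffold, was higher in Mstn-/- muscle by 0.35 and 0.65 (adjusted p = 7.1e-04 and 1.2e-07, limma) and fell with overload by 0.82 and 0.52. Usp14, the deubiquitinase bound to the cap, was 0.37 higher in overloaded Mstn-/- muscle (adjusted p = 1.0e-04, limma). The shuttle factor gene Ubqln4 fell with overload by 0.89 and 0.70, and Zfand5, whose protein binds the proteasome, by 0.82 and 0.68.

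Of 12 regulators of proteasome genes, 3 (25%) were higher and 1 (8.33%) lower in untreated Mstn-/- muscle and 5 (41.7%) were higher and none lower after overload. With overload 2 (16.7%) rose in wild type, among them Nfe2l3 (0.22, adjusted p = 0.0021, limma), and 1 (8.33%) in Mstn-/-, and 5 (41.7%) fell in each genotype, a share near that of all tested genes. Nfe2l2, the stress-responsive factor of the antioxidant response element, was -0.26 lower in untreated and 0.31 higher in overloaded Mstn-/- muscle, with a difference in response of 0.57 ± 0.076 (adjusted p = 1.2e-05, limma). Keap1, which encodes its inhibitor, was 0.38 and 0.32 higher in Mstn-/- muscle. Ngly1, which encodes an enzyme that processes the Nfe2l1 protein, fell with overload by 0.44 in wild type and 0.36 in Mstn-/-, and Mafg, a partner of these factors, fell by 0.21 and 0.33. Nfe2l1, which encodes the factor that raises proteasome genes when the protease is inhibited and which is singled out here for that role, was called in none of the 5 comparisons (0.15 untreated, adjusted p = 0.060, and 0.11 after overload, adjusted p = 0.15, limma).

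Of 9 genes of ubiquitin supply, none was higher and 1 (11.1%) lower in untreated Mstn-/- muscle, and 5 (55.6%) were higher and 1 (11.1%) lower after overload. With overload 2 (22.2%) rose and 5 (55.6%) fell in wild type, and 2 (22.2%) rose and 3 (33.3%) fell in Mstn-/-, the latter near the shares of all tested genes. The conjugating enzyme gene Ube2b fell by 1.03 in wild type and by 0.50 in Mstn-/-, and Ube2d1 was 0.54 higher in overloaded Mstn-/- than wild-type muscle. Of 11 muscle ubiquitin ligase genes, 6 (54.5%) were higher and none lower in untreated Mstn-/- muscle, and 6 (54.5%) were higher and 1 (9.09%) lower after overload. With overload 2 (18.2%) rose and 7 (63.6%) fell in wild type, and 2 (18.2%) rose and 5 (45.5%) fell in Mstn-/-. The atrophy ligase Trim63 (MuRF1) was higher by 0.80 and 0.55 (adjusted p = 3.4e-07 and 3.4e-05, limma) and fell with overload by 1.09 and 1.34, and Fbxo32 (atrogin-1) fell by 1.35 and 1.93. Of 14 interferon and antigen presentation genes, 12 (85.7%) rose with overload and none fell in each genotype, and between genotypes none was higher and 4 (28.6%) lower untreated and 1 (7.14%) higher and 2 (14.3%) lower after overload. B2m, the class I light chain, rose by 0.65 and 0.93, and Tapbp, the peptide-loading factor tapasin, by 0.65 and 0.70, while the interferon factor gene Irf1 was -0.29 and -0.22 lower in Mstn-/- muscle.

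Markers of other cells also moved in these samples. Beside their counts, 11.1% of all tested genes were higher and 10.2% lower in untreated Mstn-/- muscle, and 17.5% and 19% after overload. With overload 30.3% of all tested genes rose in wild type and 27.1% in Mstn-/-. All 12 leukocyte and macrophage markers rose with overload in both genotypes; their summed intensity was 3042 to 4143 in untreated and 15215 to 22356 in overloaded wild-type arrays, and 4291 to 5571 and 10409 to 20602 in Mstn-/-. Of these markers 4 were higher in untreated Mstn-/- muscle and 2 lower after overload. All 8 fibroblast markers rose in wild type and 7 in Mstn-/-, and 7 were lower in overloaded Mstn-/- than wild-type muscle. The 10 myofibre markers summed to 114617 to 117673, 91702 to 107063, 108585 to 114987 and 105209 to 112571 in untreated and overloaded wild type and untreated and overloaded Mstn-/- muscle. Of these markers none was higher and 3 lower in untreated Mstn-/- muscle, and 4 were higher and 3 lower after overload, from Myh4, the fast IIB myosin, at 0.92 to Myh2, the fast IIA myosin, at -0.39. Of 7 endothelial markers 6 rose with overload in each genotype, and 3 of 4 tested lymphocyte markers did. In untreated Mstn-/- muscle 1 endothelial marker was higher and 3 were lower than in wild type, and after overload 1 was higher and 1 lower. All 4 tested proliferation markers rose with overload in both genotypes, and 2 were lower in overloaded Mstn-/- than wild-type muscle. Between groups, 5 to 7 of 9 lymphocyte markers and 1 to 4 of 5 proliferation markers were below the filter level. Of the tested markers, Cd4 and Nkg7 (lymphocyte) and Top2a and Ccna2 (proliferation) passed the filter only through overloaded groups. The counts of lymphocyte and proliferation markers that rose are therefore in part set by the filter. The part of other cells in the rise of Psmb8, Psmb9 and Psme2 with overload, and in the genotype differences of the other proteasome genes, was not tested.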

How the data were processed

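RNA from 1 plantaris muscle of each of 24 mice (6 in each of 4 groups) was labelled with biotin after removal of ribosomal RNA and hybridised to Affymetrix whole-transcript arrays, per the labels' protocols. The authors deposited 1 table of RMA intensity values for 34760 probe sets; RMA subtracts background, quantile-normalizes and summarises probes, which hides global shifts in RNA amount, and the sources used here give no version of it. The deposited intensity values were linear, so log2 was taken with no pseudocount, in place of the log2 values the design had assumed.

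Probe sets were named from the platform annotation: 21640 carried 1 gene symbol, 1321 several and 11799 none. For each gene the probe set with the highest mean over the arrays was kept (19937 genes), and genes with a group mean above the 30th percentile (intensity 98.9) were tested (14499). limma 3.58.1 in R 4.3.3 fitted 1 mean per group over all arrays (20 residual degrees of freedom), with Benjamini-Hochberg adjustment. The median standard error of a difference was 0.067, and the number of arrays limits the precision. The 6 samples of a group are separate mice, per the labels. The proteasome genes and all lists were chosen with earlier results of these data known. The members described in full were the 2 with the largest genotype differences or overload changes in each class, with Psmb5, Psmb7, Psmb9 and Psme1. Alternatives were 8 planned settings and, chosen after seeing the data, leaving out each array. The script was tested on simulated data in which 200 of 14499 genes differed between the untreated genotypes. It recovered 27.6% of log2 differences of 0.2, 60.8% of 0.3 and 93.6% of 0.5, with 5.63% false calls. A gene with a small difference that was not called may therefore still differ. RefSeq entries (GRCm38.p6) matched all 50 genes; protein sequences are not used here.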

Additional observations from a re-analysis of the deposited data

Results flagged for a closer look

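Among 22 described proteasome genes, 88 groups of 6 arrays were searched for an array that stood apart, where chance gives about 1 in 20, and 9 were found. Psmb4 had an array apart in 3 groups: 10.11 in wild-type untreated replicate 1 (next 10.28), 9.81 in wild-type overload replicate 3 (next 10.24) and 11.61 in Mstn-/- overload replicate 6 (next 11.24). Psmd2 had 11.25 in wild-type untreated replicate 1 (next 11.11) and 10.64 in wild-type overload replicate 3 (next 10.84). Single arrays also stood apart for Psmb5 (12.38 in Mstn-/- untreated replicate 1, next 12.15), Psmc5 (9.10 in Mstn-/- overload replicate 1, next 8.85), Psme1 (9.87 in wild-type overload replicate 3, next 9.75) and Psme3ip1 (9.21 in Mstn-/- untreated replicate 3, next 9.10).

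The change with overload differed between genotypes, by the test of that difference, for Psma6 (0.35), Psmd6 (0.34), Psmd8 (-0.43), Psme1 (0.30) and Psme2 (0.31), each as Mstn-/- minus wild type on the log2 scale. With 1 array left out at a time, the Psmd6 call held in 14 of 24 fits and the Psme2 call in 13. The shares called, 8.33% more positive and 2.08% more negative, were no higher than the 8.92% and 8.44% of all tested genes.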

How the results depend on the processing

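Under 8 planned settings, every count of proteasome genes called higher or lower in the 5 comparisons stayed within 1.5 times its reported value, and no difference reversed. Calls of single genes in single comparisons did change. Quantile normalization lost 6 and gained 5, array weights lost 2 and gained 11, and no filter and the replicate block lost 4 each. Psmb9 relative to Psmb6 with overload in wild type fell to 0.15 (exact permutation adjusted p = 0.15) with quantile normalization; the cause was not tested. In the overload and genotype comparisons 2, 0, 2 and 2 of 6 same-numbered pairs had correlated deviations above 0.1. Between the overloaded genotypes these correlations ran from -0.41 to 0.36. Such counts cannot tell whether replicate numbers mark pairs or a shared batch. With the replicate number as a block the counts higher and lower were 7 and 20 and 7 and 13 with overload in wild type and Mstn-/-, 21 and 3 and 26 and 2 between genotypes untreated and overloaded, and 3 and 1 for the difference in response. For the ratios of catalytic subunits, the replicate block leaves an exact sign-flip test over 6 pairs (smallest p 0.0312), under which none of the 12 tests passed after adjustment, with the same changes: Psmb8 to Psmb5 0.56 and 0.48 with overload, Psmb9 to Psmb6 0.23 with overload in wild type and -0.32 and -0.55 between genotypes, and Psmb10 to Psmb7 0.61 and 0.36 with overload and -0.58 and -0.82 between genotypes (exact adjusted p = 0.062 or 0.083). Leaving out each of the 24 arrays gave 7 to 7 higher and 19 to 22 lower with overload in wild type, 6 to 9 and 12 to 14 in Mstn-/-, 18 to 24 and 2 to 3 between untreated genotypes, 25 to 29 and 2 to 3 between overloaded genotypes, and 2 to 8 and 1 to 1 for the difference in response. The difference in response fell to 2 genes higher without Mstn-/- untreated replicate 5 or 6, wild-type untreated replicate 4 or 5, or wild-type overload replicate 1, and rose to 8 without wild-type overload replicate 4. Dim genes limit the test: Psma8 and Psmb11 were not tested.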
